A study of Xenopus tropicalis with 192 samples.

Results

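The densely spaced CpGs were the rows of the deposited methylation table with at least 6 other rows within 100 bp on the same chromosome, a rule that used positions only. In all, 1645 of the 6717 CpGs (24.5%) met it, and they fell into 162 stretches, a stretch being a run of dense CpGs with at most 100 bp from one to the next. A stretch held a median of 8 dense CpGs and at most 77, the median stretch was 95 bp long and the longest 651 bp, and the median gap between consecutive dense CpGs was 9 bp. Where both strands of a CpG were measured, each strand is a row and is counted as a CpG here, so that the 1645 stand for 1547 different CpGs. There were 7 stretches of 1 dense CpG, whose neighbours were themselves too sparse for the rule. Chromosome 1 held 615 dense CpGs in 63 stretches, chromosome 2 held 256 in 14, and chromosome 10 held 14 in 3. Most stretches lay outside annotated genes: 51 of the 162 touched a gene span, 39 of them that of a protein-coding gene and 3 that of tRNA genes, and the others lay a median of 31937 bp from the nearest one.

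The frogs were Xenopus tropicalis, a diploid aquatic frog used in developmental biology, and the study asked how DNA methylation changes with age in skin. Webbing skin of the hindlimb was sampled from 187 adults in 32 tanks, and 5 tadpoles from 2 tanks were sampled whole. The 22 oldest adults were 10.9 years old, all of the line Xtr.Tg(eef1a1:GFP)Krieg and from 4 tanks. The 31 adults under 1 year, called young adults here, were 19 NIGERIAN F8 frogs of 0.736 years, 9 SUPERMAN F8 frogs of 0.909 years and 3 Xtr.Tg(cryga:GFP)Grngr frogs of 0.747 years, with 1 tank for each strain. Between them were 42 adults of 1 to 3 years, 42 of 3 to 6 years, 26 of 6 to 8 years and 24 of 8 to 10 years. Those of 1 to 3 years were of the strains CMV MEM GFP (13 frogs), Xtr.Tg(CMV:Aequorin,GFP)NXR (9), TYR (7), OLIG2 F1 (6), WT Superman (6) and tubb2b GFP (1). Those of 3 to 6 years were NXR 1111 (17), Xtr.Tg(otx2:GFP)Kellr (14), tubb2b GFP (5), gtpbp2 F1 KO (3), and 1 each of sox3 F0, tlx3 F0 and Xtr.Tg(CMV:Aequorin,GFP)NXR. Those of 6 to 8 years were the lines Xtr.Et(CAGGS-SB10;cryga:RFP)Mead, Xtr.Et(eef1a1:GFP)folMead and Xtr.Et(eef1a1:GFP)psvbiMead (6 each), Xtr.Et(eef1a1:GFP)cenMead (3) and Xtr.Tg(eef1a1:GFP)Krieg (5). Those of 8 to 10 years were Xtr.Et(eef1a1:GFP)johMead (6), the 8FMead line of Xtr.Et with CAGGS-SB10,cryga:RFP and with CAGGS:GFP (5), Xtr.Et(CAGGS-SB10;cryga:RFP)7M8FMead (5), Xtr.Et(eef1a1:GFP)hbrMead (4) and Xtr.Tg(cryga:GFP)Grngr (4). The tadpoles were 3 Superman F9 WT animals of 89 days and 2 ZBTB14 KO animals of 177 days, and the labels call tadpole ages approximate. The 3 Xtr.Tg(cryga:GFP)Grngr frogs under 1 year have IDs that end in Tadpole. They were grouped with the adults because the study counts only 5 tadpoles. Frogs of a tank shared strain and, in all tanks of adults but 1, age, so tank mates are not independent animals. The exception was a tank with 1 frog listed at 547 days and 5 at 2059 days. In all 25 strain names were listed. The 96 libraries of sequencing lane 1 were all of adults and included every frog over 8 years, while lane 2 held 91 adults, among them all young adults, and the 5 tadpoles, so for the youngest and the oldest adults age and lane cannot be told apart.

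In vertebrates most CpGs carry a methyl group on the cytosine, written by DNA methyltransferases and copied to the new strand at replication, and the methylated cytosine mutates readily to T, so that CpGs are rare in most of the genome. Where they are crowded, as in CpG islands at active promoters, they are often unmethylated, while crowded CpGs in repeats are usually methylated. Neighbouring CpGs tend to share their state because the same enzymes act along a stretch, and here they can also share reads, since the reads of a fragment span more than 1 dense CpG. The capture probes had been designed on regions with age-associated CpGs in earlier whole-genome data of the study's group, so the table is not a sample of the whole genome.

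The 6 probes printed here hold all or part of stretches on which the later results turn. These are a stretch with age correlations of both signs, a tRNA gene, the strongest negative age correlations, a stretch with alternating levels, a tandem repeat and an inverted repeat. The pde3a probe ends before its stretch does and holds 2 of its CpGs. All probes are given 5′ to 3′ on the strand of the capture probe list, with positions on genome v10.0. Letters are in lower case with the measured dense CpGs in capitals.
Chr1:32812492-32812611, calls of both signs: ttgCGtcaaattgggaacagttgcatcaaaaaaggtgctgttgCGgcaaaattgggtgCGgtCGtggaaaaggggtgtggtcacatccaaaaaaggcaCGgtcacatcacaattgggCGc
Chr2:10594039-10594158, trnad-guc: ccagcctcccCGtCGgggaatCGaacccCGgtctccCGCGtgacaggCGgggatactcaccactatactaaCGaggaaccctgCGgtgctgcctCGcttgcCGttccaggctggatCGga
Chr2:86246063-86246182, most negative age correlation: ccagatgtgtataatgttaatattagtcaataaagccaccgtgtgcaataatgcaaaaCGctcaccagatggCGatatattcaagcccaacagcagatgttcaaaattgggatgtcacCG
Chr3:904172-904291, alternating levels in pde3a: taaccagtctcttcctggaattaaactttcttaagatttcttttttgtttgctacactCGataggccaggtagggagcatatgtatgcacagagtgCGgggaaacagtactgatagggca
Chr4:19360585-19360704, tandem repeat: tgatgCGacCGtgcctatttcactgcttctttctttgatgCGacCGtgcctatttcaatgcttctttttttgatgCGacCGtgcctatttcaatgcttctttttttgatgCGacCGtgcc
Chr4:34751275-34751394, inverted repeat: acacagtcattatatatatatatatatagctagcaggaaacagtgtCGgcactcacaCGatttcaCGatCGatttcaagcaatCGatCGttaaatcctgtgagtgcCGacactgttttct

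The held part of the probe list covers chromosomes 1, 2, 3 and 10 and part of chromosome 4 and has 1980 probes, 121 of them with a dense CpG and 1294 with other rows only. Of the 736 dense CpGs inside these probes, 705 had their listed position on the G of a CG of the probe, 31 on the C and 0 on neither. Probes with dense CpGs held a median of 7 CGs, against 2 in probes with other rows. Their median GC content was 42.5%, against 35%, and their median observed over expected CpG ratio was 1.31, against 0.502. Letters were mostly lower case in the source list, a common mark of repeats whose meaning the list does not state, for 60.3% of the probes with dense CpGs, against 18.9% of the probes with other rows.

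Dense CpGs were highly methylated. After 39 of them (2.37%, against 8.07% of all rows) had been removed as likely sequence variants by a mixture filter rebuilt from the study's description, 1606 dense CpGs were tested among 6175, and 72.7% of them had a mean fraction over adults above 0.9, against 40.3% of the other CpGs. The median level was 0.932 for dense CpGs and 0.876 for other CpGs, and 0.898 over all. Only 22 dense CpGs had a level below 0.5. The median SD across adults was 0.0198 for dense CpGs and 0.0322 for other CpGs. At like levels the dense value was not always the smaller. It was 0.0723 against 0.0699 below 0.5, 0.104 against 0.0681 at 0.5 to 0.8 and 0.0360 against 0.0351 at 0.8 to 0.9. At 0.9 to 0.95 it was 0.0192 against 0.0212, and above 0.95 it was 0.0131 against 0.0154. A share of 28.7% of the dense and 40.7% of the other tested CpGs lay in a gene span.

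The level and the share of negative age correlations both moved with the number of neighbours. Probes had been designed on regions with age-associated CpGs, and which rows were the targeted CpGs was not taken into account. Whether the design shaped these shares, or those of dense against other CpGs below, was not tested. The median level was 0.819 with 0 other rows within 100 bp, 0.873 with 1 to 2, 0.908 with 3 to 5, 0.932 with 6 to 9, 0.934 with 10 to 19 and 0.921 with 20 to 41. The percent negatively correlated with age was 47.2 with 0 other rows, 35.7 with 1 to 2, 26.3 with 3 to 5, 19.5 with 6 to 9, 19.4 with 10 to 19 and 15.6 with 20 to 41. At the limit of the rule there was no step: the 319 tested CpGs with 6 other rows had a median level of 0.926 and 22.3% negative calls, and the 268 with 5 had 0.921 and 24.6%.

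**Figure D1:**
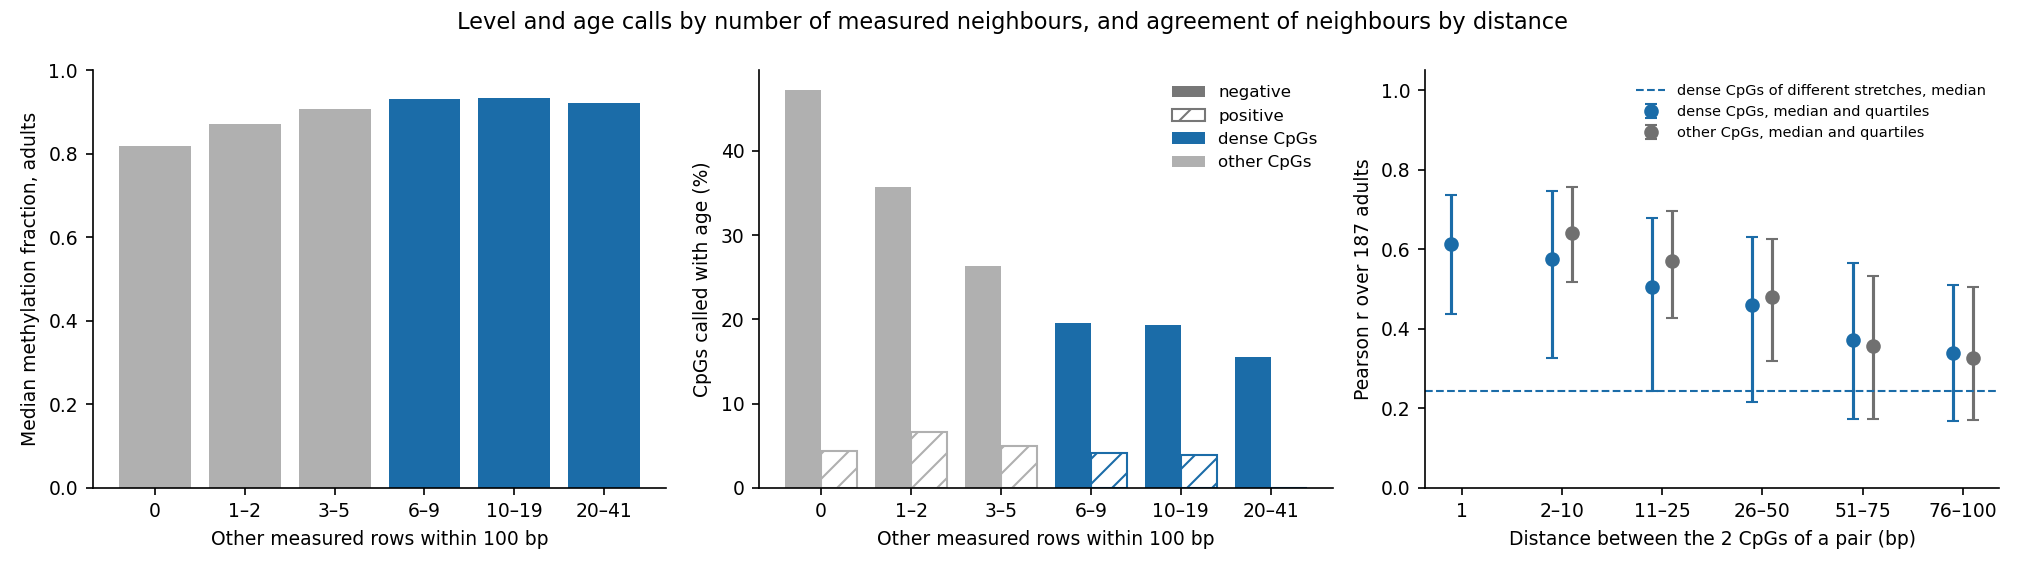
Left, median methylation fraction over 187 adults against the number of other measured rows within 100 bp. Centre, percent of CpGs called positive or negative with age in the same classes. Right, Pearson r over adults for pairs of CpGs against their distance in bp (points, medians; bars, quartiles), with the median for pairs of dense CpGs of different stretches as a dashed line. The bars for dense CpGs are blue, and the negative calls drop to 15.6% in the most crowded class while the correlation of neighbours drops with distance.

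Age correlations were mostly negative and small. Of the 1606 dense CpGs, 308 (19.2%) were negatively and 60 (3.74%) positively correlated with age across the 187 adults (Spearman correlation, two-sided, Benjamini-Hochberg adjusted p under 0.001 over 6175 CpGs), 368 in either direction, while over all tested CpGs these shares were 30.9% and 5.18%, or 36.1% in either direction. The median correlation was -0.113 for dense CpGs and -0.181 for other CpGs, and 76.2% of the dense and 81.4% of the other CpGs lay below 0. The median difference of the oldest from the young adults was -0.0213 at the negative and 0.0714 at the positive dense CpGs, and it was over 0.1 in size at 58 of the 308 and 22 of the 60. These calls treat frogs as independent. Over the means of the 32 tanks, 0 dense CpGs passed in either direction (0.696% negative and 0.308% positive over all CpGs). An unadjusted Spearman p under 0.05 was seen at 256 of the 1606, and no such share over all CpGs was taken. All 368 called CpGs kept their sign over tank means, and 327 kept it within both lanes. They had been called on these same frogs, so the kept signs are no separate support.

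The lower share of negative calls was not uniform over levels. Among CpGs with a level of 0.5 to 0.8, 24.2% of 157 dense and 55.2% of 1093 other CpGs were called negative. Between 0.8 and 0.9 the shares were 33.2% of the dense and 41.0% of the other CpGs, between 0.9 and 0.95 they were 17.8% and 21.2%, and above 0.95 they were 9.84% and 11.5%. Below 0.5 the order was turned, with 10 of 22 dense CpGs (45.5%) and 33.2% of the others. Positive calls were more frequent among dense than among other CpGs at levels of 0.5 to 0.8, with 13.4% and 9.97%. The same held between 0.8 and 0.9, with 9.27% and 4.16%, and between 0.9 and 0.95, with 1.75% and 1.03%. Above 0.95 both shares were 0%, and below 0.5 they were 9.09% and 24.3%. The mean of all dense CpGs in a frog was 0.891 ± 0.00613 in the oldest adults and 0.903 ± 0.00359 in young adults (SD, n = 22 and n = 31), and that of the other CpGs was 0.803 ± 0.00839 and 0.824 ± 0.00400. Most frogs lay close together, and 1 frog of 2.30 years stood apart at 0.821 for dense and 0.746 for other CpGs.

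**Figure D2:**
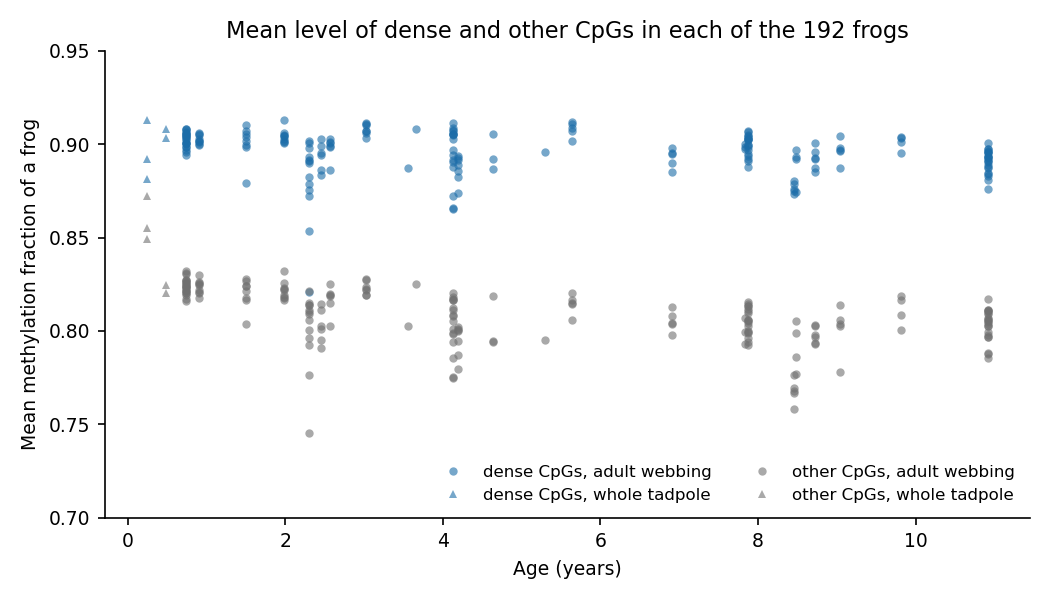
Mean methylation fraction of the dense CpGs (blue) and of the other CpGs (grey) in each of the 192 frogs against age in years, with adults as circles and whole tadpoles as triangles. The dense means sit near 0.9 at every age, and the lowest adult, of 2.30 years, is lowest in both sets.

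Neighbouring dense CpGs varied together across frogs, and the closer they lay the more so. Across adults, the 8341 pairs of tested dense CpGs of 1 stretch at most 100 bp apart had a median Pearson r of 0.434, with quartiles of 0.210 and 0.626, and 8.19% of them were below 0. The 3748 pairs of other CpGs as close had a median of 0.504, and the 1274479 pairs of dense CpGs from different stretches had 0.245. With each frog taken as its deviation from its tank mean, the dense pairs had a median of 0.386. The other close pairs then had 0.422, and dense pairs from different stretches had 0.199. At 2 to 10 bp the median r was 0.577 for dense and 0.642 for other pairs, at 26 to 50 bp it was 0.459 and 0.480, and at 76 to 100 bp it was 0.339 and 0.327. Age correlations of neighbours had the same sign in 70.4% of dense pairs, in 78.7% of other pairs and in 63.6% of pairs from different stretches. The last share is of dense CpGs only, and none was taken for distant pairs of other CpGs. More of the other CpGs had a correlation below 0 (81.4%, against 76.2%), so the first 2 shares are not directly comparable. Over tank means the share was 63.0% of dense pairs, against 55.9% of pairs from different stretches, and within lane 2 it was 57.2%, against 51.0%. These points share frogs, tanks and reads and are given as a description.

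The closest rows were the 2 strands of 1 CpG. In 98 dense CpGs both were measured, and their levels differed by a median of 0.0137 and at most 0.0625, with 4 CpGs over 0.05. Even there the median r was 0.621, and the age correlation had the same sign in 83 of the 98.

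Most stretches with calls had calls of 1 sign only, while the correlations, uncalled ones included, were often mixed. Of the 111 stretches with a call, 77 had negative calls only, 12 positive calls only and 22 both, and 51 stretches had no call. A stretch with 1 call can have only 1 sign, and 308 of the 368 calls were negative. The counts of stretches by sign are therefore no measure of agreement. Of the 154 stretches with at least 2 tested CpGs, 58 had every age correlation below 0, 5 had every one above 0, and 91 had both signs. The SD of the age correlations within a stretch was 0.156, against 0.186 over all dense CpGs. The median r within a stretch was above 0.7 in 14 stretches and below 0 in 2.

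The 3 stretches with the most rows held tRNA genes, which RNA polymerase III transcribes from elements inside the gene, and in them most CpGs were measured on both strands. Chr2:10592706-10593356 had 77 rows of 48 different CpGs over trnai-aau, an isoleucine tRNA gene, and trnad-guc, an aspartate tRNA gene. Chr2:10593974-10594326 had 58 rows of 31 CpGs over a further copy of trnad-guc, and Chr6:130885921-130886517 had 56 rows of 30 CpGs over trnal-uag, a leucine tRNA gene. Counted by different CpGs, the first stayed the largest, while Chr1:32812315-32812813 with 34 and Chr1:32576789-32577190 with 33 came before the others. The genes themselves were methylated: the 17 rows inside trnai-aau had levels between 0.886 and 0.944, the 7 and 16 inside the copies of trnad-guc between 0.844 and 0.943, and the 10 inside trnal-uag between 0.887 and 0.942. The tRNA gene probe above holds 12 CpGs, all measured on both strands, and the 24 rows had levels from 0.844 to 0.943. The 2 chromosome 2 stretches repeat each other at a distance of 977 bp, and reads of near-identical copies can be exchanged in alignment, so values of one copy are uncertain. At the 19 positions that correspond, levels differed by a median of 0.0252, the age correlation had the same sign at 13, and the median r between copies was 0.505.

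Age calls in the tRNA stretches were nearly all negative, and their share was close to that of all dense CpGs. Of the 191 rows, 33 were negative (17.3%, against 19.2% of dense and 30.9% of all tested CpGs) and 1 positive. In the order above, the negative calls numbered 11 of 77 rows (14.3%, on 10 different CpGs), 7 of 58 (12.1%, on 4) and 15 of 56 (26.8%, on 11), and the positive one lay in the last. Inside the tRNA genes 2 of 24, 2 of 16 and 4 of 10 were called, and outside them 9 of 53, 5 of 42 and 11 negative with 1 positive of 46. The strongest lay 156 bp from trnad-guc, at Chr2:10594271. Its fraction was 0.796 at the lowest, 0.840 at the median and 0.867 at the highest in the oldest adults, and 0.862, 0.883 and 0.903 in young adults. The ranges overlapped only at their edges, and the correlation with age was -0.667 over adults (adjusted p = 3.33e-23), -0.417 within lane 1 and -0.731 within lane 2. The 5 tadpoles, at 0.911 to 0.949, lay above all young adults.

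The strongest negative age correlations of dense CpGs came from a stretch of low to middle levels, Chr2:86246122-86246182, 15168 bp from stk40, a serine/threonine kinase gene. Its first CpG, Chr2:86246122, had fractions from 0.280 to 0.478 with a median of 0.393 in the oldest adults and from 0.446 to 0.594 with a median of 0.516 in young adults. The medians of the classes between were 0.475 at 1 to 3 years, 0.410 at 3 to 6, 0.397 at 6 to 8 and 0.359 at 8 to 10, so that the 3 oldest classes lay close together and those over 10 years were not the lowest. The correlation with age was -0.715 over adults (adjusted p = 6.13e-28), and -0.616 over tank means (adjusted p = 0.00599), which does not pass the threshold of 0.001. In the tadpoles of 89 days it was 0.805, 0.784 and 0.819, and in those of 177 days 0.512 and 0.533, inside the range of the young adults. Age, genotype and tank of the tadpoles cannot be told apart. The next CpG, Chr2:86246136, 14 bp on, followed it with -0.698, and the last, at Chr2:86246182, with -0.334.

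Other stretches in which every tested CpG was called negative were found on chromosomes 4 and 10. At Chr10:5432-5503, 6258 bp from LOC101731736, the 3 CpGs had a median pair r of 0.918, and their mean was 0.459 ± 0.069 in the oldest and 0.707 ± 0.063 in young adults (SD, n = 22 and n = 31). The means at 1 to 3, 3 to 6, 6 to 8 and 8 to 10 years were 0.620, 0.643, 0.619 and 0.594. The 5 frogs of the oldest group's line at 6.91 years were low as well, at 0.533 ± 0.053 and from 0.497 to 0.624, while 45 frogs of other lines of 7.83 to 9.81 years had 0.615 ± 0.069 and ran from 0.395 to 0.739 (SD, n = 5 and n = 45). The age correlations were -0.396, -0.551 and -0.583.

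The tandem repeat at Chr4:19360591-19360736 had 10 dense CpGs, all negative, with correlations between -0.433 and -0.305. A unit of 35 bp repeats through the probe, where 97.6% of the letters equal those 1 unit on, and each unit holds a pair of CpGs 4 bp apart. In 5 of 5 pairs the first CpG had the lower level, between 0.789 and 0.902, and the second lay between 0.889 and 0.929. The last pair, from Chr4:19360732, lies past the end of the probe and 36 bp on, so its sequence was not seen. The mean over the stretch was 0.861 ± 0.048 in the oldest and 0.894 ± 0.009 in young adults (SD, n = 22 and n = 31). One of the oldest lay at 0.657, and the median of the oldest was 0.872.

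The inverted repeat at Chr4:34751322-34751382, 5556 bp from prdx5, which encodes a peroxiredoxin, had the highest agreement of all stretches. Its probe holds 2 arms of 20 bp, starting at 34751312 and 34751372, of which one is the reverse complement of the other. The 7 CpGs had a median pair r of 0.969, and 0.947 with tank means removed, and all were negative with age, between -0.351 and -0.278. The range of frog means was 0.904 to 0.970 with a median of 0.956 in the oldest and 0.954 to 0.974 with a median of 0.965 in young adults. The spread came from few animals: 16 frogs of 7 tanks had a mean below 0.9, down to 0.688 in a frog of the 8 to 10 years class, in which each of the 7 CpGs lay between 0.664 and 0.705. Without those 7 tanks, 137 frogs gave correlations between -0.367 and -0.231.

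In pde3a, which encodes a phosphodiesterase that breaks down cyclic nucleotides, neighbouring CpGs held very different levels. The stretch Chr3:904230-904331 has 4 CpGs, each measured on both strands. Going along the chromosome, the levels were 0.789 and 0.738, then 0.274 and 0.251, then 0.767 and 0.799, then 0.149 and 0.0868. The strands of each CpG lay nearer to each other than to the next CpG. They were not always close, as at 0.149 and 0.0868, where the median strand difference of the 98 CpGs was 0.0137. All but 1 of the 8 rows were negative with age, between -0.622 and -0.353, and the exception, Chr3:904268, was at -0.186. Calls fell on rows of high and of low level: Chr3:904230 was 0.775 ± 0.036 in the oldest and 0.840 ± 0.019 in young adults, and Chr3:904331 was 0.0853 ± 0.0086 in the oldest and 0.0991 ± 0.0082 in young adults (SD, n = 22 and n = 31).

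**Figure D3:**
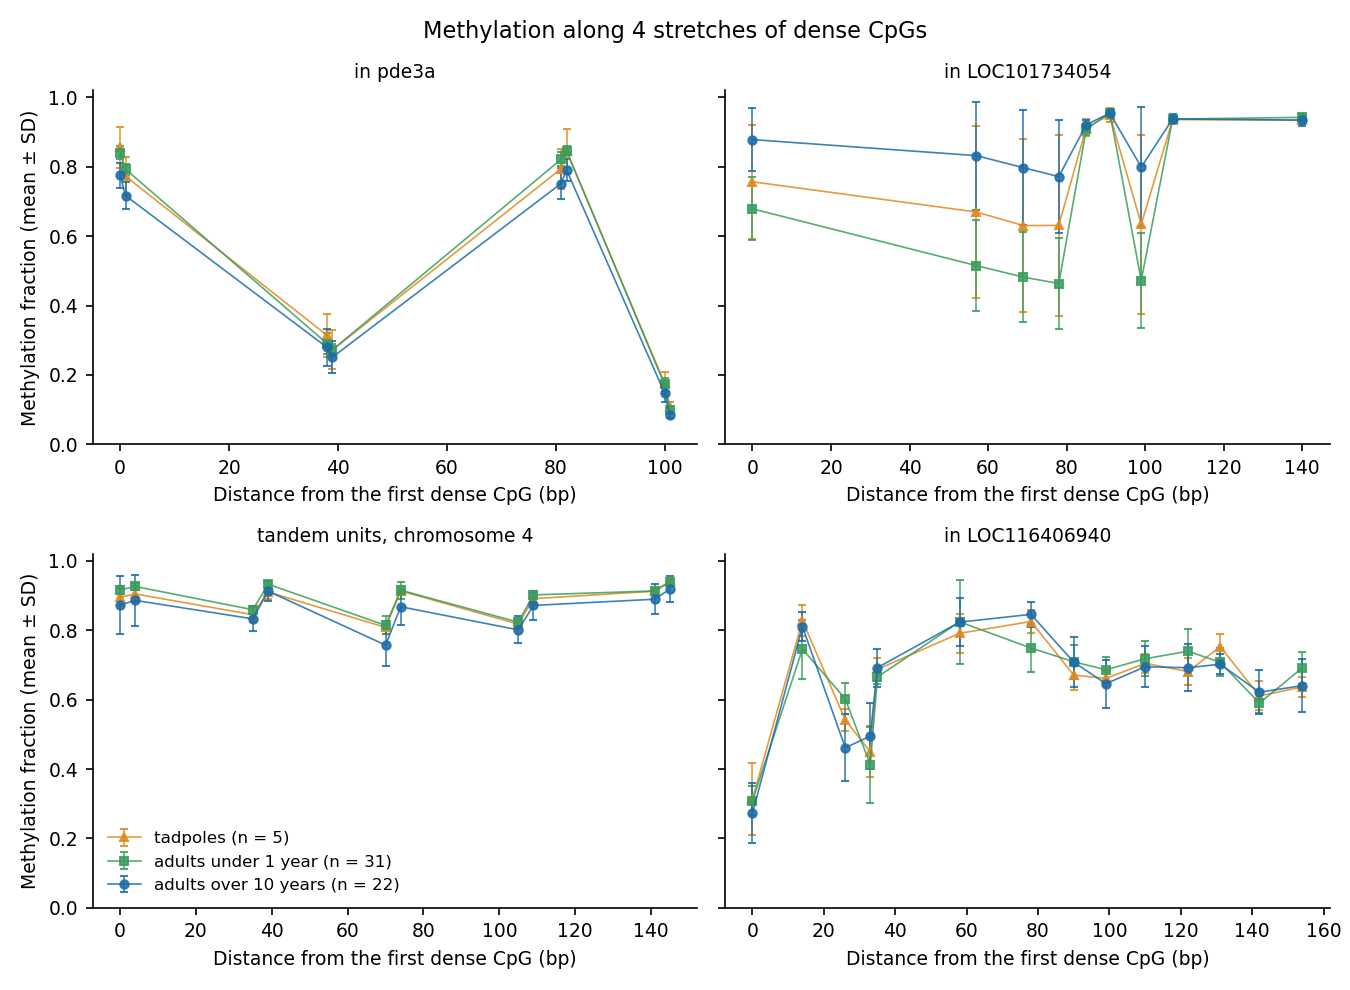
Mean methylation fraction (points; bars, SD) along 4 stretches against the distance in bp from the first dense CpG, for tadpoles (orange triangles, n = 5), adults under 1 year (green squares, n = 31) and adults over 10 years (blue circles, n = 22). In pde3a the levels alternate between about 0.8 and under 0.3, in LOC101734054 the wide CpGs are interleaved with steady ones near 0.94, and in the tandem units the first CpG of a pair is the lower.

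Such breaks within a stretch were not rare. A total of 67 dense CpGs in 46 stretches lay at least 0.2 below the median of their stretch. Of these, 16 (23.9%) were negative and 9 (13.4%) positive with age, against 19.2% and 3.74% of all dense and 30.9% and 5.18% of all tested CpGs. A CpG so far below its stretch has a level of at most 0.8, unlike most dense CpGs. Among dense CpGs with a level of 0.5 to 0.8 the shares were 24.2% and 13.4%, and below 0.5 they were 45.5% and 9.09%. In the lncRNA gene LOC116406686, at Chr8:35883619-35883724, the levels ran 0.287, 0.0612, 0.936, 0.937, 0.949, 0.946, 0.957 and 0.0683, with a median pair r of 0.116. The low CpGs at its ends were low in nearly all frogs, with maxima of 0.222 at Chr8:35883632 and 0.258 at Chr8:35883724.

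The most positive age correlations of dense CpGs were at Chr6:126164802 and inside LOC101734054. Chr6:126164802, 16985 bp from LOC100492434, had fractions of 0.916 to 0.957 with a median of 0.932 in the oldest and of 0.761 to 0.920 with a median of 0.790 in young adults, ranges that met only at their edge. The medians between were 0.811, 0.855, 0.889 and 0.925, in order of age, and the correlation was 0.542 over adults (adjusted p = 2.70e-14), 0.735 within lane 1 and 0.361 within lane 2. At Chr3:36591802 the correlation was 0.528, but the fractions were high throughout, at 0.923 to 0.960 with a median of 0.954 in the oldest and 0.907 to 0.966 with a median of 0.936 in young adults, and the adults of 8 to 10 years had the highest median, 0.968.

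The stretch Chr6:18644743-18644883 in LOC101734054 held 2 kinds of CpG in turn. Its 5 wide CpGs, with an SD over 0.1, had pairwise r between 0.964 and 0.996, and the 4 narrow ones between and after them stayed near 0.935, with a median r of 0.170 with the wide ones. The mean of the wide CpGs was 0.816 ± 0.149 in the oldest and 0.522 ± 0.123 in young adults, and that of the narrow ones 0.937 ± 0.010 and 0.936 ± 0.006 (SD, n = 22 and n = 31). The rise was not steady. At the wide CpG Chr6:18644812 the adult class means, in order of age, were 0.482, 0.477, 0.724, 0.551, 0.649 and 0.797. The widest gap between frogs lay high in their range: 143 had a wide mean from 0.363 to 0.798 with no gap over 0.0282, and 44 had one of at least 0.874. Tanks accounted for 69.8% of the variance, but in 10 of the 28 tanks with at least 2 frogs the tank mates spanned over 0.3. Among tadpoles, Chr6:18644812 was 0.883, 0.502 and 0.501 at 89 days and 0.359 and 0.908 at 177 days, so tank mates of the youngest age already differed. The wide CpGs were positive with age, at 0.502 to 0.530, and 0 of the 4 narrow ones was called.

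**Figure D4:**
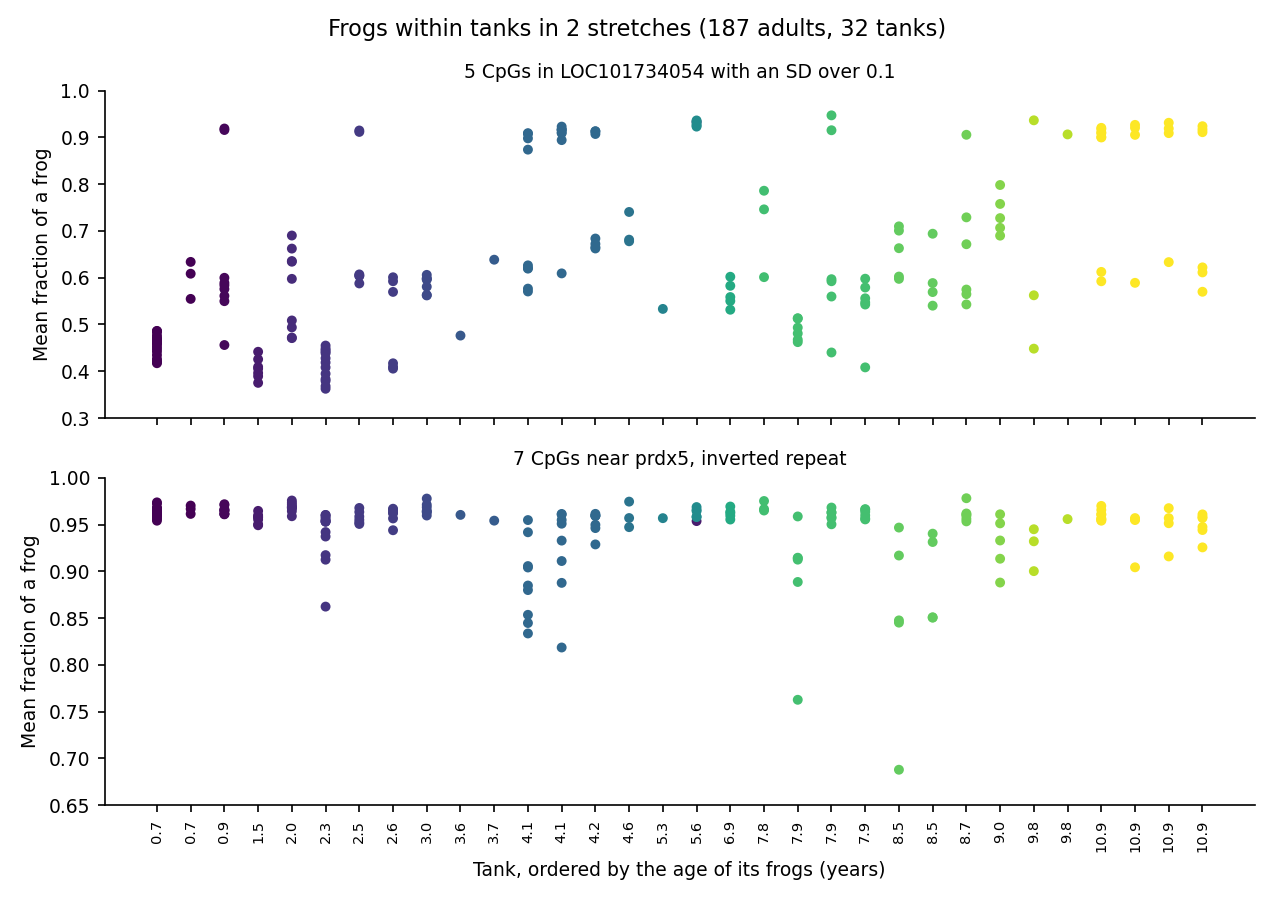
Mean methylation fraction of each of 187 adults, by tank, with the 32 tanks ordered by the age of their frogs in years, for the 5 wide CpGs in LOC101734054 (above) and the 7 CpGs of the inverted repeat near prdx5 (below). The tank of mixed age stands at 5.6 years. The upper values have their widest gap between 0.798 and 0.874, and below, 16 frogs of 7 tanks lie under 0.9.

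Wide CpGs were as frequent among dense CpGs (129, or 8.03%) as among other CpGs (7.94%). Of the 129, 21 were positive and 29 negative with age, among 60 and 308 such calls. Positive calls were 3.74% of all dense and 5.18% of all tested CpGs, and negative calls 19.2% and 30.9%. Dense CpGs with a level of 0.5 to 0.8 had a median SD of 0.104, and 13.4% of them were positive and 24.2% negative. The wide CpGs occurred in 66 stretches. In 23 stretches at least 2 of them lay beside at least 2 narrow ones, with an SD under 0.03. In Chr9:16457579-16457666, 10475 bp from LOC105948375, 4 wide CpGs had a median r of 0.923 among themselves and of -0.105 with the 6 narrow ones. In Chr1:33203055-33203118 all 7 CpGs were wide, with frog means from 0.432 to 0.942.

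The 60 positive calls lay in 34 stretches, 21 of which had a single one. In Chr8:13391106-13391179, inside LOC116406642, 6 of 7 CpGs were positive and the seventh, Chr8:13391139, was at 0.188. The mean was 0.893 ± 0.018 in the oldest and 0.836 ± 0.017 in young adults (SD, n = 22 and n = 31), and 0.883, 0.860, 0.899 and 0.879 in the classes between, in order of age. At Chr8:32935920-32936234, 13254 bp from LOC116406960, 12 of 28 CpGs were negative and 1, Chr8:32936218, was positive at 0.364. Its mean was 0.758 in the oldest, 0.655 in young adults and 0.390 in tadpoles, while the median level of the stretch was 0.938.

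Of the 22 stretches with calls of both signs, the 3 with the most calls of the rarer sign follow. Chr8:143121389-143121543 in LOC116406940 had 2 positive and 6 negative of 14, and although the median r of its pairs was 0.764, only 46.7% of them shared the sign of the age correlation. Chr8:143121415 had -0.471 and Chr8:143121422, 7 bp on, 0.319. Chr1:81802625-81802828, 15453 bp from LOC105948228, had 2 positive and 4 negative of 14, from -0.538 to 0.499. Chr1:32812315-32812813 had 6 positive and 7 negative of 34, with a median pair r of 0.162. The 6 CpGs of its printed probe had levels between 0.537 and 0.857 and age correlations between -0.428 and 0.354. The lowest agreement of all stretches, a median r of -0.153 over 3 pairs, was at Chr1:32796792-32796821.

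A share of 42.1% of the rows between 32315636 and 33624498 on chromosome 1 was dense, with 515 dense CpGs in 51 stretches over 1309 kb that overlap 4 genes, 1 of them protein coding. None of its 500 tested dense CpGs lay in a gene span. Their level, with a median of 0.929, and their calls, 20.4% negative and 3.4% positive, were close to those of the other dense CpGs, at 0.933, 18.6% and 3.89%. They differed in how far the calls rested on the oldest frogs, a point looked at after the values were seen. Without the 22 oldest, 1 of the 17 positive calls of the interval was left, and their median correlation was 0.0920 without and 0.330 with the oldest. Elsewhere 35 of 43 positive calls were left, with medians of 0.420 without and 0.391 with the oldest. The difference between the places was not tested. Of the negative calls 45 of 102 were left in the interval and 151 of 206 elsewhere. The median difference of the oldest from the young adults at the positive calls was 0.163 in the interval and 0.0437 elsewhere. At Chr1:32812612, one of the 6 positive CpGs of the stretch with both signs, the level was 0.731 ± 0.051 in the oldest and 0.552 ± 0.048 in young adults (SD, n = 22 and n = 31), and the correlation was 0.374 with and 0.120 without the oldest.

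Complete separation of the oldest from the young adults was rare and lay mostly in this interval. At 16 dense CpGs (0.996%, against 1.46% of all tested CpGs) the 2 groups did not overlap, with the oldest lower at 14 and higher at 2, and 14 of the 16 were in the interval, as were 48 of the 90 over all CpGs. A tank of 5 younger frogs of the same line, 6.91 years old, allowed a comparison within the line. The 16 CpGs had been picked for the values of the oldest, all of this line. That by itself favours CpGs at which the line differs. At Chr1:32954830 the fraction ranged from 0.294 to 0.878 with a median of 0.392 in the oldest, from 0.655 to 0.686 with a median of 0.676 in the 5 younger frogs of the line, from 0.858 to 0.928 with a median of 0.895 in 45 frogs of other lines of 7.83 to 9.81 years, and from 0.892 to 0.935 with a median of 0.912 in young adults. At this CpG the line at 6.91 years lay below all frogs of the other lines. At most of the 14 CpGs, however, the ranges of the 5 and the 45 frogs overlapped. At Chr1:32577085 they were 0.811 to 0.846 in the line and 0.748 to 0.960 in the other lines. At Chr1:33100228 the medians were 0.573 in the oldest, 0.708 in the younger frogs of the line, 0.940 in the other lines and 0.948 in young adults. At all 14 CpGs the mean of the 5 lay between those of the oldest and the young adults, and at 7 of the 14 all 5 lay beyond the range of the young adults. A median of 8.89% of the 45 frogs of other lines lay beyond it, but the CpGs differed widely. The number ran from 1 frog, as at Chr1:32962617, to 21 of the 45 at Chr1:32453465, and it was 19 at Chr1:32954830.

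The exception on chromosome 2 behaved otherwise. At Chr2:10594230, 115 bp from trnad-guc, the fraction was 0.599 to 0.711 in the oldest, 0.637 to 0.695 in the 5 younger frogs of the line, 0.562 to 0.721 in the 45 frogs of other lines and 0.739 to 0.790 in young adults, so that all 45 lay below every young adult. At Chr2:27793943, in st3gal6, a sialyltransferase gene, the line again stood apart, with means of 0.694 in the oldest, 0.795 at 6.91 years, 0.948 in the other lines and 0.953 in young adults. Line and age cannot be told apart in the oldest frogs, and both ages of the line were housed in tanks of their own.

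**Figure D5:**
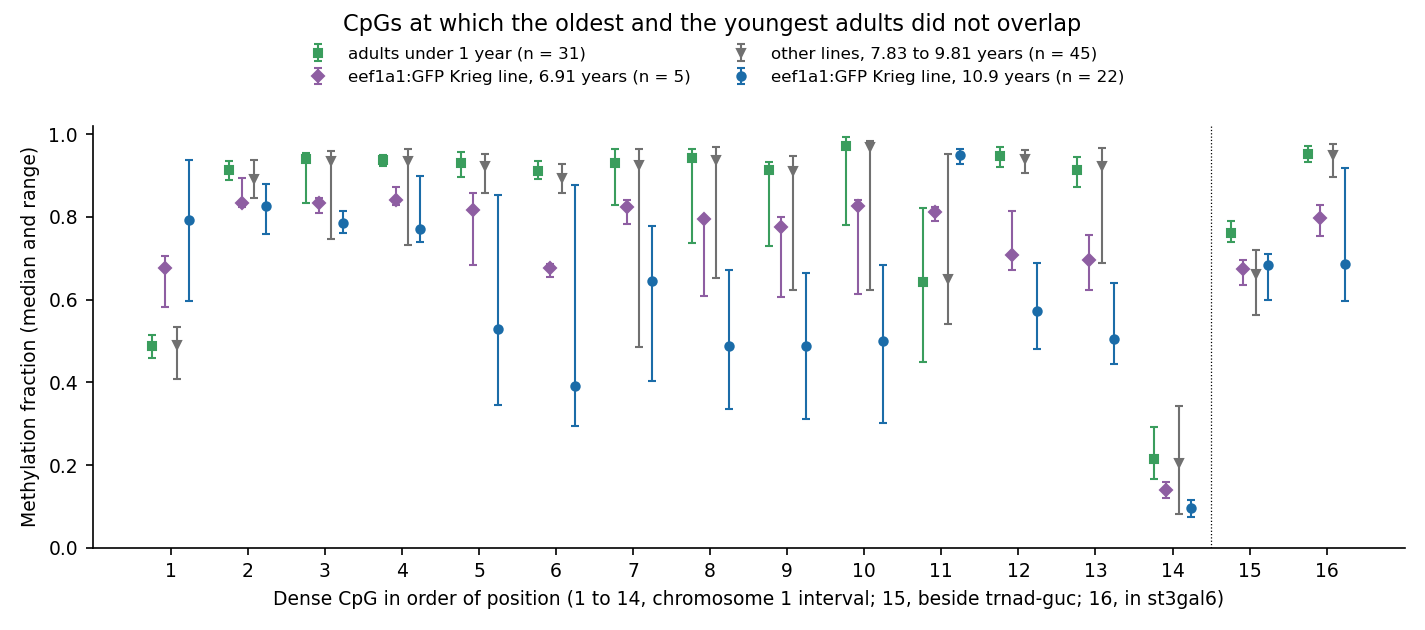
Methylation fraction (points, medians; bars, lowest to highest frog) at the 16 dense CpGs where the oldest and the young adults did not overlap, in order of position, for young adults (green squares), frogs of the oldest group's line at 6.91 years (purple diamonds), frogs of other lines of 7.83 to 9.81 years (grey triangles) and the oldest (blue circles). At 14 CpGs of the chromosome 1 interval the diamonds lie between squares and circles while the triangles stay near the squares, and at CpG 15 all triangles lie below the squares.

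Young adults had more methylation than tadpoles at many dense CpGs. In limma on the log2 logit of the fractions, 398 dense CpGs (24.8%) were higher and 113 (7.04%) lower in the 31 young adults than in the 5 tadpoles (adjusted p under 0.05 over 6175 CpGs), while over all CpGs the shares were 19.4% and 19.5%. The first count depended on which tadpoles entered: it was 148 without the second and 195 without the first tadpole, both of 89 days. The median difference in fraction was 0.0227 at the higher and -0.0392 at the lower CpGs. Over tank means, 3 tanks of young adults and 2 of tadpoles, 0 passed in either direction. An unadjusted limma p under 0.05 was seen at 170 of the 1606 dense CpGs, and no such share over all CpGs was taken. All 511 called CpGs kept their sign over tank means, but they had been called on the same frogs. Whole tadpoles hold many tissues and the adults were sampled as skin, so tissue and stage cannot be told apart.

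The largest increases were at Chr5:144480545, 367323 bp from klhl29, and Chr4:46669125, 23746 bp from LOC116410551. Chr5:144480545 had 0.883 to 0.976 with a median of 0.956 in young adults, against 0.787, 0.822, 0.831, 0.823 and 0.807 in the tadpoles, and the groups did not overlap. The difference was 2.18 ± 0.25 on the log2 logit scale (SE, limma adjusted p = 3.12e-08). Chr4:46669125 had 0.891 to 0.958 in young adults, against 0.682, 0.767, 0.742, 0.817 and 0.810 in the tadpoles, a difference of 2.10 ± 0.15 (SE, limma adjusted p = 4.24e-13). Both were lower again in older adults, with age correlations of -0.284 and -0.446. Over tank means these were -0.208 and -0.425 (Spearman, Benjamini-Hochberg adjusted p = 0.487 and 0.0894). Both CpGs had been picked for high values in the young adults, which by itself favours a fall from that class. The class means of Chr5:144480545 after 1 year stayed between 0.894 and 0.901. The largest decreases were at wide CpGs of Chr9:16457579-16457666. Chr9:16457664 had 0.538 to 0.980 in young adults, against 0.949 to 0.987 in tadpoles, and the groups overlapped, with a difference of -2.70 ± 0.77 (SE, limma adjusted p = 0.00529). Of the tRNA stretches, Chr6:130885921-130886517 had 23 of 56 rows higher and 1 lower in young adults. Those on chromosome 2, of 77 and 58 rows, had 11 higher with 11 lower and 15 higher with 9 lower. Over all dense CpGs the shares were 24.8% higher and 7.04% lower, and over all tested CpGs 19.4% and 19.5%. Most CpGs of these stretches count as 2 rows, 1 for each strand.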

How the data were processed

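Libraries were enriched by capture probes and bisulfite sequenced, which turns unmethylated C into T. The authors trimmed the reads, used BiSulfite Bolt with the v10.0 assembly for alignment and calling, required at least 100 reads at a CpG in every frog and deposited the share of reads with C as a fraction for each of the 192 frogs. The submitters' processing notes also name fastp and SAMtools 1.11. Most deposited columns have a bare number as their name, and they hold fractions as the others do. How many reads lie behind each fraction is unknown above that minimum of 100, so no counting interval is given.

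Groups and ages were taken from the sample labels, and tanks and lanes from the study's table of samples. Of the 6717 CpGs, 542 were removed by a mixture filter rebuilt from the study's description, whose sites may differ from those the study removed (scikit-learn 1.9.0, 3 components against 1, a difference in BIC above 90 and a value below 0.006). Age was tested over 187 adults by Spearman correlation (scipy 1.17.1) with Benjamini-Hochberg adjustment over all 6175 CpGs and a threshold of 0.001, and young adults against tadpoles by limma 3.58.1 in R 4.3.3 at 0.05, on log2 logits with 0.001 added to both shares. Both fits were run on simulated data, for limma with independent noise in each frog and no tanks, lines or lanes. That run checks the calculation and not whether calls hold across tanks. Python 3.11.15, pandas 2.3.3, numpy 2.4.6 and matplotlib 3.10.9 were used. Gene spans came from RefSeq on UCB_Xtro_10.0, and sequences from the part of the study's probe list that was held.

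Named were the 4 stretches with the most dense CpGs, 2 each with most positive and most negative calls, those with the highest and lowest pair correlation, the 3 with most calls of both signs, the 5 most positive and 5 most negative CpGs and the 4 with the largest tadpole differences. The pde3a, LOC116406686, LOC101734054, chromosome 9 and 10 and tandem repeat stretches, Chr1:33203055-33203118, Chr2:86246122-86246182 as a stretch, the chromosome 1 interval and the CpGs without overlap were added after their values were seen. The members and lists were chosen with earlier results of these data known. Alternatives concerned the filter, tanks, lanes, frogs left out, lane and depth as covariates, thresholds, scales and the rule's limits. The whole-genome data and the external frogs were not analysed here.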

Additional observations from a re-analysis of the deposited data

Results flagged for a closer look

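Of 35 named CpGs and stretches, 2 had 1 tadpole far from the other 4 by Dixon's criterion for 5 samples, which chance meets in about 1 in 20 groups. At Chr6:126164802, 1 tadpole of 89 days had 0.795, while the others had 0.899 to 0.920. At Chr6:153869220, a dense CpG 7171 bp from LOC116411534, 1 tadpole of 89 days had 0.725, while the others had 0.535 to 0.568. The number of reads behind these values is not known, and why they stand apart was not tested.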

How the results depend on the processing

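The 60 positive and 308 negative calls of dense CpGs fell to 0 and 0 over tank means, also without the frog whose age differs from its tank mates, an alternative chosen after seeing the data. They were 36 and 137 in lane 1, 104 negative in lane 2, 124 and 633 at an adjusted p under 0.05, 30 and 144 among the 915 CpGs with at least 6 other rows within 50 bp, and 23 and 132 among the 719 with at least 10 within 100 bp. The 398 higher and 113 lower CpGs of the tadpole comparison became 0 and 0 over tank means, and without each tadpole in turn they were 148 to 513 and 78 to 115. Tadpoles 1 and 2 set the lower end, with 195 higher CpGs without tadpole 1 and 148 without tadpole 2. Lane 1, lane 2 and tank means have fewer samples, and both stricter rules have fewer members. Under the other settings counts stayed within 1.5 times, the negative calls between 222 with lane held constant and 433 with the wider window of the rule. The share of pairs with the same sign ran from 57.2% in lane 2 to 76.0% for next neighbours, the median pair correlation from 0.370 in lane 1 to 0.542 for next neighbours, and the median level from 0.930 to 0.932. Of 40 alternatives for the 10 CpGs named for their age correlation, 27 kept the call and 13 lost it, 10 of them over tank means, with adjusted p between 0.00135 and 0.0210, and 0 changed sign. The other losses were Chr6:126164802 in lane 2, and Chr8:36175512 and Chr3:904230 in lane 1. The 10 CpGs had been picked as the most extreme over the same frogs, so the kept signs are no separate support. No paired analysis was possible because the replicate numbers name frogs and do not pair frogs of different ages. Reads behind each value, shared reads between neighbours, and the overlap of age with line, tank and lane limit all of these results.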
